A study of Mus musculus with 8 samples.

Results

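Recurrent m6A peak regions in internal coding exons were examined in bone-marrow-derived macrophages (BMDMs) of wild-type (WT) and *Mettl3*-/- (KO) mice. Each mouse gave 1 deposited peak list, and the 4 lists are called WT-1 and WT-2, then KO-1 and KO-2. Peaks that shared 1 bp or more on a strand were merged across lists into 12350 regions. The members were selected on the peak calls themselves and on their position. A region was kept when it held a peak in 3 or 4 lists, when its midpoint lay in the coding sequence of an exon that was neither the first nor the last of the longest coding transcript, and when it touched no start or stop codon. This left 895 regions in 870 exons of 744 genes, out of 12350 regions. Regions that could be assigned to a coding gene lay in 7049 genes. Across all regions, 30.6% had a peak in 3 or 4 lists. WT mice were *Mettl3* fl/fl Lyz2+/+ and KO mice *Mettl3* fl/fl Lyz2cre/+, so both genotypes carried the floxed alleles and differed by the Cre. All were C57BL/6 and 8 weeks old, and their bone marrow cells were grown for 7 days in medium with M-CSF at 40 ng/mL. An m6A immunoprecipitation (IP) and an input library were made from each of 2 mice per genotype, 8 libraries in all, and no treatment was added. Lyz2-Cre is active in the myeloid lineage, granulocytes and some dendritic cells included, and deletion can be incomplete in a culture.

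m6A is the most common internal modification of mRNA. It is written by a complex of METTL3, the catalytic subunit, and METTL14, at adenosines in the DRACH consensus, written in the usual code for sets of bases, of which GGAC is the best known core. It is read by proteins such as the YTHDF and YTHDC families, which act on splicing, decay and translation. In mammalian transcripts it is known to be dense around stop codons and in unusually long internal exons, and sparse in exons of ordinary length. In MeRIP-Seq, RNA fragments bound by an m6A antibody are sequenced beside the input, and stretches with an excess of reads are called as peaks. Each peak carries a score, used here as a rank among the peaks of its list. Read counts are not part of the lists, and sequencing depth is therefore unknown. Where a pair of values is given for a genotype, replicate 1 comes before replicate 2.

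The lists held 6159 to 6684 peaks of at least 300 bp, with scores between 50.05 and 3233.06. Scores piled up at a ceiling of 3100, which 10.3% and 13.5% of the peaks of the WT lists and 16.2% and 19.5% of those of the KO lists reached or passed. *Mettl3* itself had no peak in any list, so the deleted gene gave no check of the labels. Of 15 macrophage marker genes, 8 had a peak region. So did 1 of 6 T cell, 2 of 6 B cell and 3 of 6 stromal markers, and no neutrophil (0 of 6), dendritic cell (0 of 5) or erythroid (0 of 5) marker. Over all genes with a coding transcript it was 7049 of 21866. A region in 3 or 4 lists was found for 5 macrophage, 0 T cell, 1 B cell and 2 stromal markers. A peak shows RNA enriched by the m6A antibody and not its level, and the lists hold no separate measure of methylation. The part of other cells in the results below was not tested.

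The sequences that follow are the 80 coding bases with the most GGAC inside the stretch shared by all lists of a member, the most upstream where several tied, so that most windows end on the motif. They show what the strongest, widest and most unequal members held (RefSeq GRCm38 genome, read 5′ to 3′ on the strand of the gene, with GGAC in capitals). Because each window was picked for its motif, its count is a description. Cut into successive windows of 80 bases, the 870 exons gave 12015 windows, of which 30.5% held at least 1 GGAC, 5.78% at least 2, 0.766% at least 3 and 0.0916% at least 4. *Ankrd11*, *Stard9* and *Spen* are 3 of the genes with the longest member exons. *Fnip1*, *Eif5b*, *Plekhm3* and *Ncl* reached the ceiling in all 4 lists, *Ncl* without any GGAC. *Dst* and *Macf1* encode related cytoskeletal linkers and are shown for the same exon number, 57. *Rreb1* and *Bcl9l* scored higher in the KO lists, and *Jarid2* higher in the WT lists.
Ankrd11, chr8:122892555-122892634 (minus strand): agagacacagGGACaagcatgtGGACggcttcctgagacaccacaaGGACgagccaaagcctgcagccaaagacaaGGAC
Stard9, chr2:120699295-120699374 (plus strand): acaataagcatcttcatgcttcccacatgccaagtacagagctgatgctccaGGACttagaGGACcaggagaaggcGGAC
Spen, chr4:141479293-141479372 (minus strand): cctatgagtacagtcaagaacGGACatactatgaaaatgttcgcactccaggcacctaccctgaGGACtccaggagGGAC
Fnip1, chr11:54503569-54503648 (plus strand): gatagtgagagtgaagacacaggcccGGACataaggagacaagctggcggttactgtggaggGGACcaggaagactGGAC
Eif5b, chr1:38019196-38019275 (plus strand): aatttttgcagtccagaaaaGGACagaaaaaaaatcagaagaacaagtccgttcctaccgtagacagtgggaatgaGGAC
Plekhm3, chr1:64922144-64922223 (minus strand): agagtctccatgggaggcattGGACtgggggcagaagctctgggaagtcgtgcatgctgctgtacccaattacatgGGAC
Dst, chr1:34228993-34229072 (plus strand): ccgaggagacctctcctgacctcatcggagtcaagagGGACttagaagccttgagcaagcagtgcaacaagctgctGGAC
Macf1, chr4:123433072-123433151 (minus strand): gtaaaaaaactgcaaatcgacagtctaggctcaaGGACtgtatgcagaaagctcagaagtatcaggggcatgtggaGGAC
Rreb1, chr13:37930819-37930898 (plus strand): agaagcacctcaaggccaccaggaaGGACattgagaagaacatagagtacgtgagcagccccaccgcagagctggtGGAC
Rreb1, chr13:37947121-37947200 (plus strand): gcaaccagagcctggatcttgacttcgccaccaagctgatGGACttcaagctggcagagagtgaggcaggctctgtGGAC
Bcl9l, chr9:44506843-44506922 (plus strand): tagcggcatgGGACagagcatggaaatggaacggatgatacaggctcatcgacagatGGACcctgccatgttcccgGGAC
Jarid2, chr13:44902575-44902654 (plus strand): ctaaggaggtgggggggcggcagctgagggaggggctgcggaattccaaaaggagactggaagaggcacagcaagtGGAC
Ncl, chr1:86357287-86357366 (minus strand): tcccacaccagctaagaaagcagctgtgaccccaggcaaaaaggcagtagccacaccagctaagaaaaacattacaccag

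Of the 895 members, 562 (62.8%) had a peak in all 4 lists, against 58.4% of all regions with a peak in 3 or 4 lists. The other 333 members lacked a peak in a single list. Presence in the lists chose the members, so the counts are given without a test. WT-2 was the missing list in 156 members (46.8% of the 333, against 38.7% of all 3-list regions) and WT-1 in 99 (29.7% against 29.0%). KO-1 was missing in 34 members (10.2% against 17.0%) and KO-2 in 44 (13.2% against 15.3%). A member missing from a WT list was thus more common than a member missing from a KO list, as it was among all regions with a peak in 3 lists. Regions in 3 lists, just inside the limit, had a median width of 568 bp, lay in exons with a median of 647 bp and had a median score percentile of 51.5. The score percentile is the share of a list's peaks with a score at or below that of the peak. For a region, the mean over its lists was used here. The 420 internal coding exon regions in 2 lists, just outside, had medians of 472.5 bp, 651 bp and 40.0. The 562 regions in 4 lists had medians of 857 bp, 915.5 bp and 82.5. A merged region spans the peaks of all its lists, so its width tends to grow with their number by construction.

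Members lay in long exons. The exon that held a member had a median length of 807 bp (quartiles 518 and 1462 bp, range 69 to 9837 bp), whereas the 12666 internal coding exons of the same 744 genes had a median of 139 bp. Exons of 300 bp or more made up 10.2% of these exons and 44.6% of their bases, and they held 864 of the 895 members (96.5%). In 679 members (75.9%) the exon was the longest internal coding exon of its transcript. Among all 66431 internal coding exons of genes with any region, 1.31% held a member. The share was 0.0493% (31 of 62918, Wilson 95% interval 0.0347% to 0.0699%) below 300 bp and 8.37% (93 of 1111, 6.88% to 10.1%) at 300 bp to below 400 bp. It was 19.0% (170 of 893, 16.6% to 21.7%) at 400 bp to below 600 bp and 30.8% (247 of 803, 27.7% to 34.0%) at 600 bp to below 1000 bp. At 1000 bp to below 2000 bp it was 43.2% (214 of 495, 38.9% to 47.6%), and at 2000 bp or more 54.5% (115 of 211, 47.8% to 61.1%). The share rose from each length class to the next, and the intervals of neighbouring classes did not overlap. These intervals cover counting error alone. The share is per exon, and a longer exon has more bases in which a region can lie. A rate per base was not taken by length class, so the rise is not shown to hold per base. The peaks themselves were no narrower than 300 bp, so a peak could lie wholly in an exon only from that length on, and the part of this limit in the trend below 300 bp was not tested.

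**Figure D1:**
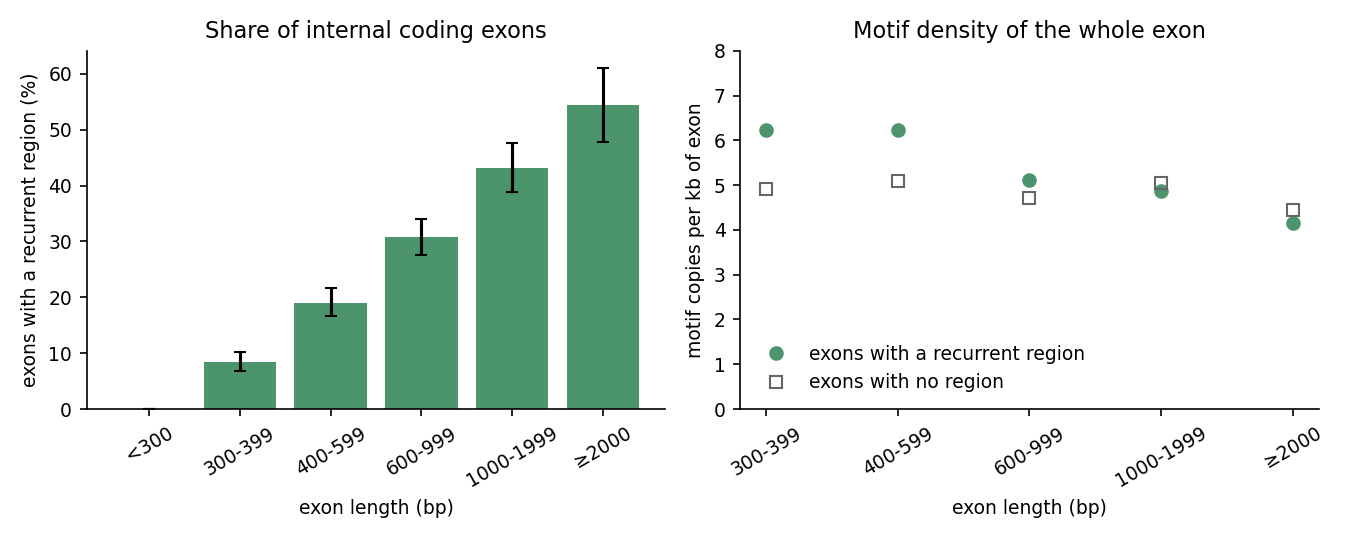
Left, share of internal coding exons of genes with any peak region that held a recurrent region, by exon length in bp, with Wilson 95% intervals; the share was 8.37% at 300 bp to below 400 bp and 54.5% at 2000 bp or more. Right, copies of the motif GGAC per kb over whole exons with a recurrent region (filled circles) and with no region (open squares); the exons with a region were denser from 300 bp to below 1000 bp, and not above.

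Sequence was not used by the rule, and GGAC was counted over whole exons of each length class. Exons of 300 bp to below 400 bp held 6.22 GGAC per kb where they had a member and 4.90 where they had no region in any list. The densities were 6.23 and 5.09 at 400 bp to below 600 bp, and 5.11 and 4.71 at 600 bp to below 1000 bp. At 1000 bp to below 2000 bp the order turned, with 4.88 in exons with a member and 5.06 in the 140 exons without a region, and at 2000 bp or more the values were 4.16 and 4.44. Member exons were thus the denser ones from 300 bp to below 1000 bp and not above. Exons under 300 bp were not counted, and these differences were not tested.

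With the coding sequence cut into 3 equal parts, 287 members (32.1%) had their midpoint in the upstream part, 438 (48.9%) in the middle and 170 (19.0%) in the downstream part. The bases of internal coding exons of 300 bp or more in the same genes were spread similarly, with 35.0%, 43.2% and 21.8%. Of the 744 genes, 216 (29.0%) also had a recurrent region over their stop codon, against 24.4% of all genes with any region. The midpoint was coding in every annotated coding transcript of the gene in 376 members, and 149 members belonged to genes annotated with only 1 coding transcript.

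The ends of the peaks often fell on the ends of the exon. Of the members, 766 (85.6%) lay wholly inside the exon, 750 had at least 1 end exactly on an exon end, and 441 (49.3%) coincided with the entire exon to the base. Of the single peaks of members, 27.0% and 20.8% equalled the exon in the WT lists and 30.6% and 37.3% in the KO lists. How peak ends were set is not given in the sources used here, and the part of the annotation in the widths was not tested. None of the 31 members in exons under 300 bp lay inside the exon. In the 4-list members a median of 73.5% of the bases lay in peaks of all 4 lists, and in 92 of them all lists gave the same start and end.

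Inside long exons the coverage was highest away from the ends. In the 329 member exons of 1000 bp or more, peaks of WT-1 covered 39.1% of the bases within 50 bp of the upstream end and 66.6% at 450 to 500 bp from it. Coverage went from 29.1% to 61.3% over the same distance for WT-2, from 43.4% to 69.9% for KO-1 and from 47.3% to 75.8% for KO-2. From the downstream end inward it went from 49.4% to 66.8% for WT-1, from 42.8% to 64.8% for WT-2, from 55.0% to 73.4% for KO-1 and from 60.5% to 78.6% for KO-2. Every list thus covered the ends less than the interior, and the upstream end less than the downstream end. Peaks were at least 300 bp wide, and 85.6% of all members lay wholly inside their exon. Peaks placed inside an exon cover its ends less in any case, and the part of this placement in the gradient was not tested. The order of the lists, WT-2 lowest and KO-2 highest, was the same at both ends and over the entire exons, where 56.6% to 72.7% of the bases were covered.

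**Figure D2:**
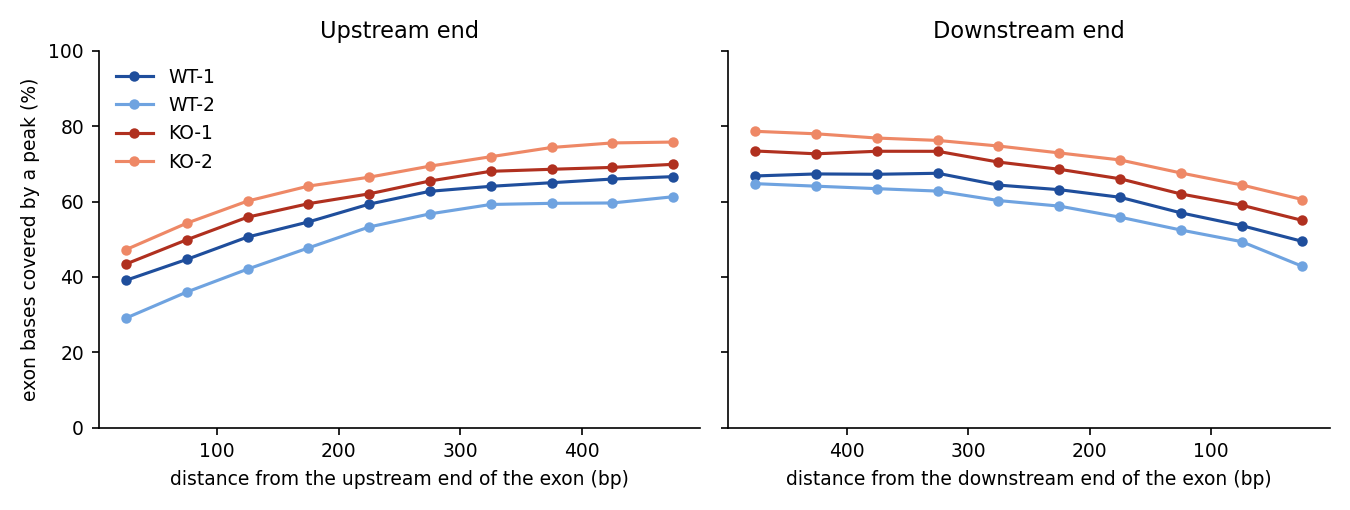
Share of exon bases covered by a peak in each list, in bins of 50 bp from the upstream (left) and downstream (right) end of the 329 member exons of 1000 bp or more. All 4 lists rise from the ends inward, from between 29.1% and 47.3% to between 61.3% and 75.8% upstream.

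The 5 longest exons with a member lay in *Stard9*, *Spen*, *Mki67*, *Ankrd11* and *Crybg3*. Exon 22 of *Stard9*, a kinesin-like centrosomal protein, measured 9837 bp and held 2 members. The wider spanned 6698 bp with 30 GGAC and scored 3100 in WT-1, 2212 in WT-2, and 3100 in both KO lists. The other, at chr2:120695831-120697681, scored 234 and 480 in WT and 3100 and 1631 in KO, so that its KO scores lay above its WT scores. Exon 12 of *Spen*, a transcriptional corepressor, measured 8020 bp, and its member there spanned 7678 bp, the widest of all, with 38 GGAC. Exon 12 of *Mki67*, the Ki-67 proliferation antigen, measured 6836 bp and the merged region filled it, although single peaks were 3291 to 5647 bp wide. Exon 9 of *Ankrd11*, an ankyrin repeat chromatin regulator, measured 6518 bp, and its member of 5272 bp carried 58 GGAC, the most of any member. These regions of *Spen*, *Mki67* and *Ankrd11* stood at the ceiling in all 4 lists. In *Crybg3* the exon measured 6136 bp but the member was only 944 bp wide, with peaks of 929 to 944 bp in the 4 lists, all at the ceiling.

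Members in the shortest exons reached past them. Exon 7 of *Sh3bp2*, a signalling adaptor, measured 69 bp under a region of 831 bp, with scores of 634 and 178 in WT and 3100 and 1755 in KO. In *Luc7l3*, a splicing factor gene, the exon measured 106 bp under 545 bp. Its scores were 2644 and 91.2 in WT and 3100 and 2320 in KO, so WT-2 stood apart from the other 3 lists. The neighbouring bases that such peaks cover were not assigned to an exon here.

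Most genes held a single member (628 of 744). *Dst*, which encodes the linker protein dystonin, held 5. *Macf1*, its relative that joins actin and microtubules, held 4, as did *Rnf213*, a giant ubiquitin ligase, *Ash1l*, a histone methyltransferase, and *Akap9*, a scaffold of the centrosome and Golgi. The longest transcripts of *Dst* and *Macf1* both had 98 exons, and 76 exon numbers had the same length in both. The members lay in exons 36, 44, 56 and 57 of both genes, and in no other exon of either. This match was noticed after the values were seen. All of these exons were longer than 300 bp in both genes, and 96.5% of all members lay in exons of 300 bp or more. Exon 48, with 318 bp in both genes, held no member. The part of exon length in the match was not tested. Exon 57 measured 1472 bp in each gene, and both members reached 3100 in all 4 lists, with 10 GGAC in *Dst* and 8 in *Macf1*. Aligned base by base without gaps, the exons shared 33.4% of their positions, the longest identical run was 11 bp, and no GGAC stood at the same position. Exon 56 measured 496 bp in both, with 52.0% identical positions and a longest run of 10 bp. Without gaps, related bases that are shifted between the genes are not set side by side. These values are thus no measure of how alike the exons are, and shared motif sites were not tested. In *Dst* its member scored 1289 in WT-1 and 3100 in both KO lists, with no peak in WT-2. In *Macf1* it scored 356 and 3100 in WT and 1269 in KO-1, with no peak in KO-2. Exon 36, the longest of both transcripts with a member, measured 5292 bp in *Dst* and 5331 bp in *Macf1*. The 2 genes were not alike in every exon, since the *Dst* member in exon 44 held 5 GGAC and that of *Macf1* a single copy.

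In *Rnf213* the members of exons 20 and 28 stood at the ceiling in all lists and that of exon 25 in 3, with 1618 in WT-1. Its exon 28 of 3603 bp was covered entirely in both WT lists and over 3574 bp in both KO lists. In *Akap9* the member of exon 30 scored 885 and 332 in WT and 3100 in both KO lists, whereas that of exon 39 stood at 3100 in all 4. *Ash1l* had 2 members in its exon 3 of 4558 bp, with a lowest score of 2871 in WT-2, and a member in exon 27 that scored 1020 in WT-1, 59.0 in KO-1 and 76.4 in KO-2. Members of the same gene thus differed among themselves, as exon 27 and exon 3 of *Ash1l* show.

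The motif followed the covered bases inside the exons. Peaks of WT-1 covered 637067 bases of the 870 exons and held 5.11 GGAC per kb. The density was 5.35 for WT-2, 5.16 for KO-1 and 5.10 for KO-2, while the 122009 bases in no peak of any list held 3.35. The excess was 1.83 per kb on average and between 1.75 and 2.0 in the 4 lists (two-sided exact paired permutation test over the 4 lists, p = 0.125, the smallest that 4 lists allow). The lists share most of these bases and the uncovered bases are the same for each, so the 4 values are not independent. G and C made up 49.4% of the bases in peaks of 3 or 4 lists and 51.2% of the uncovered bases. Uncovered bases lie nearer the exon ends, as the coverage from the exon ends shows. With bases within 200 bp of an end left out, 746 exons gave 4.93 to 5.19 GGAC per kb in covered and 3.18 in uncovered bases. Of the 895 members, 844 (94.3%) held at least 1 GGAC, with a median of 4 copies, and the 51 without it were narrower, with a median width of 431 bp against 708 bp over all members.

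All 18 forms of DRACH, each 5 bases, were counted the same way, like GGAC on the strand of the gene only. The 3 forms that begin with GGAC are counted among the copies of GGAC above. Bases in peaks of 3 or 4 lists held 1.38 GGACT per kb against 0.656 in uncovered bases, a ratio of 2.10 and the highest of the 18. GAACT followed with a ratio of 1.74 and GGACA with 1.64. GGACC ranked 7 with 1.27. The ratio was below 1 for AAACC (0.879) and TAACC (0.626). These are ratios of counts over the same 870 exons, given without a test.

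The reading frame of GGAC was not used by the rule either. In the bases shared by 3 or 4 lists, 2006 of 3416 GGAC (58.7%, Wilson 95% interval 57.1% to 60.4%) began on the last base of a codon, so that GAC, a codon of aspartate, was read next. In uncovered bases this held for 196 of 401 (48.9%, 44.0% to 53.8%). GGAC that began a codon, read as the glycine codon GGA, made up 22.0% (20.7% to 23.5%) of the shared and 28.7% (24.5% to 33.3%) of the uncovered copies. The intervals of shared and uncovered bases did not overlap for either frame. They cover counting error alone, and copies of the same exon are not independent. The remaining frame made up 19.2% (17.9% to 20.6%) and 22.4% (18.6% to 26.8%), where the intervals overlapped.

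**Figure D3:**
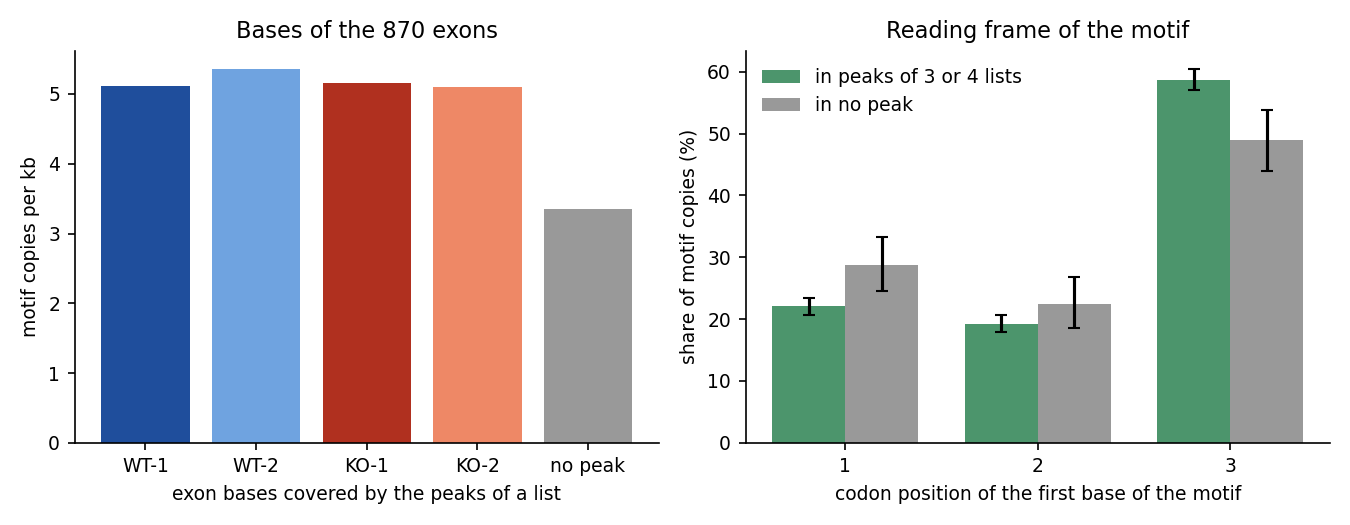
Left, copies of GGAC per kb in the bases of the 870 member exons covered by the peaks of each list and in the bases in no peak; the 4 lists lie between 5.10 and 5.35 and the uncovered bases at 3.35. Right, share of GGAC copies by the codon position of their first base, in bases shared by 3 or 4 lists (green) and in no peak (grey), with Wilson 95% intervals; position 3 holds 58.7% and 48.9%.

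Within each list, the central 200 bp of member peaks were compared with those of the other internal coding exon peaks. Member peaks held 5.96 and 6.02 GGAC per kb in the WT lists and 5.94 and 5.76 in the KO lists. The peaks of the 1229 regions found in 1 or 2 lists held 5.78 and 5.65 in WT and 5.15 and 5.17 in KO. Most member regions are shared by all 4 lists, so the values of the lists are not independent. The difference was 0.485 ± 0.266 per kb (SD, n = 4) and positive in 4 of 4 lists (two-sided exact paired permutation test, p = 0.125, the smallest possible). It fell to 0.116, with both signs among the lists, when only the 50% of peaks with the highest scores in a list were used, to 0.199, again with both signs, in genes with only 1 coding transcript, and to 0.0794, also with both signs, with GGACT counted in place of GGAC. Over entire peaks it was 0.177 and positive in 4 of 4 lists. Merged internal coding exon regions had 4.96 GGAC per kb in 1 list and 4.82 in 2 lists. Those in 3 lists had 5.44 and those in 4 lists 4.79, so the density did not rise steadily with the number of lists. The windows are genomic, so those of peaks that reach past the exon can hold bases outside it. Of the regions in 1 and in 2 lists, 73.1% and 81.9% lay inside the exon. Of those in 3 and in 4 lists, 85.9% and 85.4% did. The part of this in the difference was not tested. Peaks of the 1718 recurrent stop codon regions held 5.04 to 5.35 GGAC per kb, less than member peaks by 0.667 ± 0.0491 (SD, n = 4) in 4 of 4 lists (exact paired permutation test, p = 0.125). Recurrent regions are shared by 3 or 4 lists, so these 4 values are not independent either.

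Member peaks ranked high in every list. Their median score percentile was 75.2 and 68.8 in the WT lists and 77.2 and 75.4 in the KO lists, while that of the other internal coding exon peaks was 37.7 to 39.2. Recurrence and score both come from the peak call, so this gap is given as a description. Set between the genotypes, the mean of the list medians was 72.0 ± 4.49 in WT and 76.3 ± 1.33 in KO (SD, n = 2). The difference of 4.31 could not be told from the spread between mice (two-sided exact permutation test over 6 labellings, p = 0.333, which no set of 2 and 2 lists can go below), and WT-1 lay close to KO-2. Without WT-2 it was 1.13 and without WT-1 7.48, and among members with a peak in all 4 lists it was 22.2, where many KO peaks stood at the ceiling. Of the member peaks, 26.2% and 27.4% reached the ceiling in WT and 38.3% and 42.2% in KO.

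Median widths of member peaks were 560.5 and 560 bp in WT and 588.5 and 645 bp in KO. Both KO lists thus lay above both WT lists, by 56.5 bp on average (exact permutation test, p = 0.333, the smallest possible). The difference was 28.2 bp without KO-2 and 84.8 bp without KO-1. Widths over all peaks of a list moved the same way, from 478 and 498 bp in WT to 501 and 543 bp in KO. Member peaks were narrower than recurrent stop codon peaks in 4 of 4 lists, by 167 ± 52.0 bp (SD, n = 4, exact paired permutation test, p = 0.125). The lists share these regions, so the 4 values are not independent. Any region touching a stop codon was kept out of the members, and a wider region touches one more easily. The part of this rule in the width difference was not tested.

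**Figure D4:**
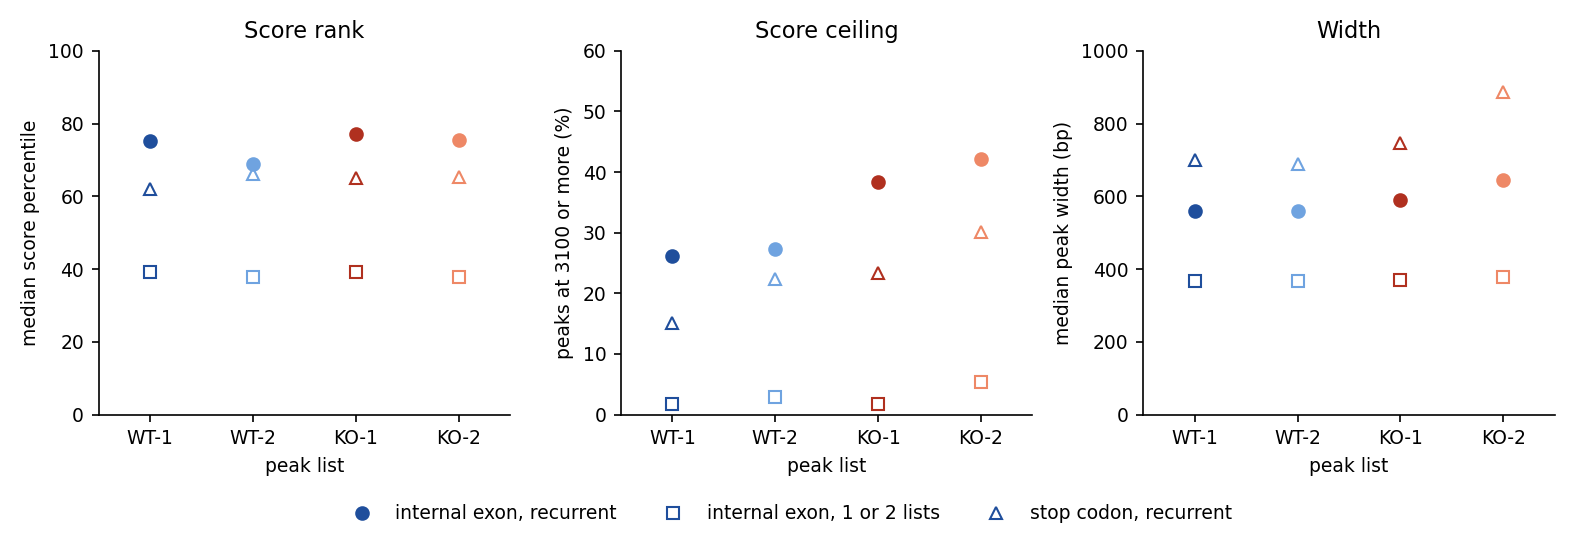
Median score percentile, share of peaks at the score ceiling of 3100 or more, and median width in bp, for peaks of each list in recurrent internal exon regions (filled circles), in internal exon regions found in 1 or 2 lists (squares) and in recurrent stop codon regions (triangles). Blue shades mark WT and red shades KO lists; member peaks lie between 68.8 and 77.2 in percentile, and their share at the ceiling is higher in both KO lists.

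Single regions were compared by rank in the 562 members with a peak in all 4 lists. In 136 of them (24.2%) both KO percentiles lay above both WT percentiles, against 23.6% of all 2203 regions with a peak in 4 lists, so members were near the background. In 30 (5.34%) both KO percentiles lay below both WT percentiles, against 9.35%. A pair of lists against a pair allows no test of a single region. The median difference, KO minus WT, was 6.71 percentile points in members and 4.91 over all regions. The ceiling bears on these counts. Both KO lists were at the ceiling in 264 members (47.0%, against 33.5% of all 4-list regions) and both WT lists in 124 (22.1%, against 15.3%), so the KO lists had the larger share in members and in all regions alike. In all 4 lists 117 members stood there (20.8%, against 13.8%), where scores cannot show a difference. With equal scores placed at the middle of their ranks, the counts became 109 above and 150 below, against 18.9% and 24.0% of all regions, so the direction turned. Those 117 members made up most of the 150. Without them 445 members were left, of which 136 lay above and 27 below by the first measure (against 27.4% and 10.7% of all such regions), and 109 above and 33 below by middle ranks (21.9% and 12.0%). Among the 161 members with no score at the ceiling, 33 lay above and 17 below, against 17.6% and 15.2% of the 880 such regions.

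The largest rises in rank were in 2 exons of *Rreb1*, a zinc finger transcription factor of Ras-responsive elements. At chr13:37930169-37932737, in exon 10, scores were 362 and 240 in WT and 3100 in both KO lists. In exon 12 they were 335 and 425 in WT and again 3100 in both KO lists, so the WT and KO scores of both members were far apart. *Bcl9l*, a coactivator of β-catenin, scored 58.1 and 810 in WT and 3100 and 3025 in KO. *Myo10*, an unconventional myosin of filopodia, scored 431 and 119 in WT and 1672 and 3100 in KO. *Sh2b1*, an adaptor of receptor kinases, scored 397 and 91.4 in WT and 3100 and 1435 in KO. In these 3 genes the WT or the KO scores also differed several-fold among themselves.

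Among the largest falls was *Nlrp1a*, an inflammasome sensor, which scored 1266 and 3100 in WT and 134 and 634 in KO. *Jarid2*, a cofactor of Polycomb repressive complexes, scored 1383 and 2432 in WT and 480 and 169 in KO. *Atp7a*, a copper transporter, scored 2405 and 3100 in WT and 2083 and 170 in KO, so that KO-1 was near WT-1. *Klhl28* scored 1508 and 2176 in WT and 944 and 91.2 in KO. The members named for a rise or a fall were picked for their difference, so their values are a description.

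**Figure D5:**
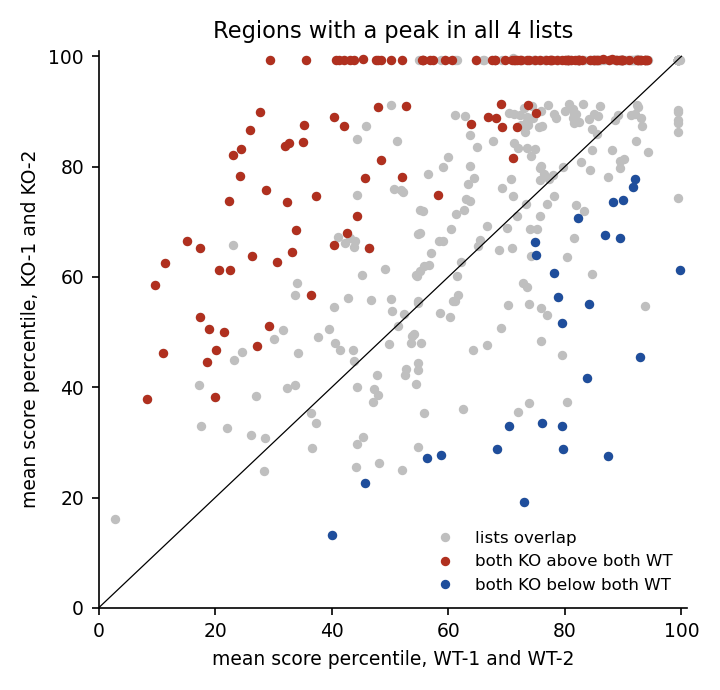
Mean score percentile in the WT and KO lists for the 562 members with a peak in all 4 lists; red points have both KO above both WT percentiles, blue points both below, grey points overlap, and members at the ceiling in all lists are grey. The row of points along the top edge holds members at the ceiling in both KO lists, of which there were 264.

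Members were counted in 8 gene lists, chosen with earlier results of these data known, and set beside the 10.6% of the 7049 genes with any region that held a member. Since long exons differ between gene families, the share was also taken over the 636 genes that had a region and an internal coding exon of 1000 bp or more, of which 50.9% held a member. Among chromatin modifiers and transcription coregulators, which write, read and move histone marks, 55 of 84 genes with a region held a member (65.5%), with 81 regions in all. Among those with a long exon it was 31 of 38 (81.6%). *Phf3*, *Arid4b*, *Nsd1* and *Baz2b* had a member at the ceiling in all 4 lists. The methyltransferase *Nsd1* held 11 GGAC in an exon of 2560 bp that peaks of WT-2, KO-1 and KO-2 filled.

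Among genes of RNA binding, splicing and decay, 29 of 62 held a member (46.8%), 17 of 21 with a long exon (81.0%). They included *Zc3h13* and *Virma*, subunits of the m6A writer complex, and the readers *Ythdf2*, *Ythdf3* and *Ythdc1*. These readers and *Virma* were singled out after their values were seen. *Ythdf3* and *Ythdc1* scored 3100 in all 4 lists, and *Ythdf2*, with 11 GGAC in its exon of 1584 bp, scored 2119 and 3100 in WT and 2352 and 3100 in KO. Exon 8 of *Virma* scored 1446 in WT-1 and 3100 in the other lists. *Zc3h13* held 3 members, and that of exon 14, 1191 bp long, scored 3100 in WT-1 and both KO lists and had no peak in WT-2. WT-2 alone was also without a peak, with the other 3 lists at the ceiling, for *Acin1*, *Eif4g1* and *Srrm1*, a splicing coactivator, a translation initiation scaffold and a component of splicing speckles. Among DNA repair, replication and mitosis genes it was 18 of 44 (40.9%), 14 of 21 with a long exon (66.7%). The cohesin regulators *Wapl* and *Nipbl* and the centrosome protein *Cep250* each had a member at the ceiling in all 4 lists, and each list covered the exon of *Cep250*, 2559 bp, from end to end.

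Among cytoskeletal, motor and scaffold genes 24 of 51 held a member (47.1%), with 43 regions, and 13 of 16 with a long exon (81.2%). *Golgb1*, a giant Golgi protein, held 3 members, the widest of 5129 bp, in which peaks were 2533 to 5129 bp wide. Ubiquitin ligases and deubiquitinases gave 20 of 62 (32.3%), 6 of 8 with a long exon (75%), and *Usp34* and *Birc6* had a member at the ceiling in every list. GTPase regulators and kinases gave 17 of 71 (23.9%), 9 of 15 with a long exon (60%). *Map3k1*, a kinase upstream of JNK and ERK, held 9 GGAC in 1252 bp at the ceiling in all 4 lists. *Trio*, a guanine nucleotide exchange factor, stood at 3100 in 3 lists and at 3023 in KO-2, and exon 20 of *Sos1*, a Ras exchange factor, at 3100 in all 4. The member in exon 10 of *Sos1* scored 2480 and 1249 in WT and 3100 and 113 in KO, so the KO lists differed from each other. *Pikfyve*, a lipid kinase of endosomes, had 698 in WT-2 and 3100 in the other lists.

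Among macrophage surface, uptake, lysosome and lipid genes 16 of 54 held a member (29.6%), 7 of 12 with a long exon (58.3%). *Msr1*, the scavenger receptor A of macrophages, had a member equal to its exon 4 of 410 bp in all lists, with scores of 3100 in WT-1, 1995 in WT-2 and 3100 in both KO lists. *Rb1cc1*, which starts autophagy, *Lyst*, a regulator of lysosome size, and *Vps13d*, a lipid transfer protein, each had a member at the ceiling in all 4 lists. The pattern recognition genes *Nlrp3*, *Nod1*, *Nod2* and *Tlr3*, singled out after their values were seen, also held members. *Nlrp3*, the inflammasome sensor, had 13 GGAC in an exon of 1756 bp and scored 255 and 3106 in WT and 1543 and 3100 in KO, so that its genotypes overlapped. Transcription factors gave the lowest share of the 8 lists, 26 of 123 (21.1%), 19 of 32 with a long exon (59.4%). *Zeb2*, which helps to keep macrophage identity, had its exon 9 of 1970 bp covered from end to end in all 4 lists, with 10 GGAC and scores at the ceiling. All 8 lists lay above the share over all genes, and the shares among genes with a long exon, 58.3% to 81.6%, also lay above 50.9%. The lists were written by hand and hold many large proteins, so these counts describe the lists and no test was made.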

How the data were processed

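m6A-seq (MeRIP-Seq) of BMDMs from 2 WT and 2 KO mice gave 8 libraries, 4 of them IP. The authors deposited 1 peak list per mouse with a peak score and a strand, and replicates were not pooled. The submitters' processing notes name cutadapt 1.9.3 and HISAT2 2.0.4, and mm10. Peak names have the form that MACS writes, but the caller, its settings and the scale of the score are not given in the sources used here, and scores were used as ranks within a list. Positions were read as 0-based starts, since starts and ends then match exon ends, and are printed counted from 1. Genes were the 21951 coding genes of GENCODE M21 and sequences the RefSeq GRCm38 genome. A gene's transcript was its longest coding transcript after splicing. Depth is unknown, and no columns of other samples were present (0).

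The members and gene lists were chosen with earlier results of these data known. Lists, not peaks, were the replicates. For KO against WT, two-sided exact permutation tests set the difference against the spread between 2 mice per genotype. The paired tests over 4 lists flipped the signs of differences within a list, so their p-values do not measure that spread. The alternatives tried were other score filters, overlaps, transcripts, windows, percentiles, a replicate block and each list left out. Named members were the 10 with the highest lowest percentile (tied at the ceiling, then by position), the 5 genes with the most members, the 5 longest and 3 shortest exons, the 5 largest non-overlapping differences each way, and up to 4 per gene list. Some members that this rule names are not reported here. Regions on a chromosome whose sequence is not shown are counted. Functions were tested on simulated data. Python 3.11.15, numpy 2.4.6, scipy 1.17.1 and matplotlib 3.10.9 were used.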

Additional observations from a re-analysis of the deposited data

How the results depend on the processing

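The number of members was 547 with the 50% of peaks with the highest scores, 149 with genes of a single coding transcript and 562 with a peak in all 4 lists, each of which holds fewer regions by construction, and 601 to 729 with a list left out. The median exon length was 743 bp with genes of a single coding transcript, 915.5 bp with a peak in all 4 lists and 856.5 bp for regions inside the exon. Members with both KO percentiles above both WT numbered 191 to 383 with a list left out and 33 with no score at the ceiling. The 383 without WT replicate 1 were 68.1% of the members, against 56.3% of all regions with a peak in 4 lists, and the other lists gave 34.0% to 35.8% against 35.1% to 37.9%. Members with both KO below both WT numbered 14 by raw scores, 69 to 260 with a list left out, 150 by middle ranks and 17 with no score at the ceiling. By raw scores this was 2.49% against 5.99% of all regions. The 260 without WT replicate 2 were 46.3% against 41.5%, and the other lists gave 12.3% to 13.5% against 18.9% to 20.9%. A score of 3100 had a percentile of 99.7 and 99.1 in WT and 99.4 and 99.3 in KO. Of the 117 members at the ceiling in all lists, those at exactly 3100 in each thus counted as higher in KO without WT replicate 1. Without WT replicate 2 they counted as lower. For the changes left, the cause was not tested. The ceiling and distance alternatives were chosen after seeing the data.

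Paired by replicate number as a replicate block, 166 members (29.5%, against 30.6% of all regions) were higher and 47 (8.36%, against 13.9%) lower in both KO lists, and the differences of 4.31 percentile points and 56.5 bp stayed as they were. The labels do not say that the numbers mark a shared litter or day. The replicate differences of WT and KO correlated at -0.0057 over the 562 members, of which 117 stood at the ceiling in all lists. In both genotypes replicate 2 had the larger share of all peaks at the ceiling. It was 13.5% against 10.3% in WT and 19.5% against 16.2% in KO. Whether replicates of the same number shared a batch could not be told from these values. For the count of members the block gave no separate value. With 2 mice per genotype, unknown depth and capped scores, differences between genotypes at single members could not be tested.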
